A study of Mus musculus with 6 samples.

Results

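The genes described here are 33 genes of APP processing, tau and Alzheimer's disease risk. They were chosen by gene name and cover the APP family, the secretases, amyloid clearance, tau and its kinases, and risk genes. All 33 had a single row in a table of 33385 genes. All 33 also passed the filter on low counts that left 20946 tested genes. The 6 libraries came from the hippocampus of mice with the floxed Bcas2F/F genotype, in which Cre recombinase can remove part of Bcas2, the gene of a spliceosome subunit. The knockdown group (n = 3) had been injected with AAV2/9-Syn-cre, an adeno-associated virus that carries Cre behind the synapsin promoter, which is active in neurons. The control group (n = 3) had been injected with a vehicle virus; its genotype field reads WT although its titles name the same floxed mice. The series title concerns Alzheimer's disease, and the comparison asks whether transcripts of this disease pathway differ once neurons carry Cre. Age, sex and time after injection are not given in the labels, which also do not say whether each library is a separate animal. Y-linked counts differed between the controls, as given below, so these were not all from a single animal. Each p-value compares the group difference with the spread between libraries of a group, which may be partly technical.

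The amyloid precursor protein APP is cut in alternative ways. An alpha-secretase, chiefly ADAM10, cuts within the amyloid beta sequence, whereas the beta-secretase BACE1 followed by the gamma-secretase complex releases amyloid beta. Proteases, lipoproteins and their receptors clear the peptide, and the microtubule protein tau becomes phosphorylated by kinases such as GSK3B and CDK5. The hippocampus is among the regions affected early in Alzheimer's disease.

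The deposited libraries held 55914768 to 76481458 counts each. The level of Bcas2 ran from 8.87 to 9.17 FPKM (fragments scaled by gene length and library size) after Cre and from 9.44 to 9.87 FPKM in the controls, so its groups did not overlap. Its edgeR log2 fold change was -0.07 (SE 0.0649, adjusted p = 0.861), with a mean level at 93.4% of the control. The test thus does not establish a lower Bcas2 transcript level in these libraries, and knockdown is used here only as the name in their genotype field. Together, the Y-linked genes Ddx3y, Eif2s3y, Kdm5d and Uty had counts in control replicates 2 and 3 and none in the other 4 libraries, so sex-linked transcripts differ within the control group and between the groups. Control replicate 3 stood apart in choroid plexus markers, whose summed level was 4305 FPKM there and 3.38 to 15.6 FPKM in the other libraries. Oligodendrocyte markers summed to 605 to 625 FPKM in the knockdown libraries and 744 to 1168 FPKM in the controls. Neuronal markers summed to 808 to 955 FPKM over all libraries and none of the 8 was at 0.

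The members spanned a wide range of levels. Per length, 7 of the 33 were above 100 FPKM on average over the 6 libraries, 16 were between 10 and 100 FPKM, 8 were between 1 and 10 FPKM and 2 were under 1 FPKM. Apoe, the main lipid carrier made by astrocytes, was the most abundant at 544 FPKM, followed by the APP homologue Aplp1 at 381 FPKM and by Itm2c at 293 FPKM. The 3 lowest were Cd2ap at 1.80 FPKM, the amyloid-degrading protease gene Mme at 0.833 FPKM and Bace2 at 0.574 FPKM. The lowest count of any member in any library was 181 and the highest was 119156. The median biological coefficient of variation fitted by edgeR was 10.5% over the members and 21.2% over all tested genes, which also have a lower median level (2.65 against 20.2 FPKM).

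**Figure D1:**
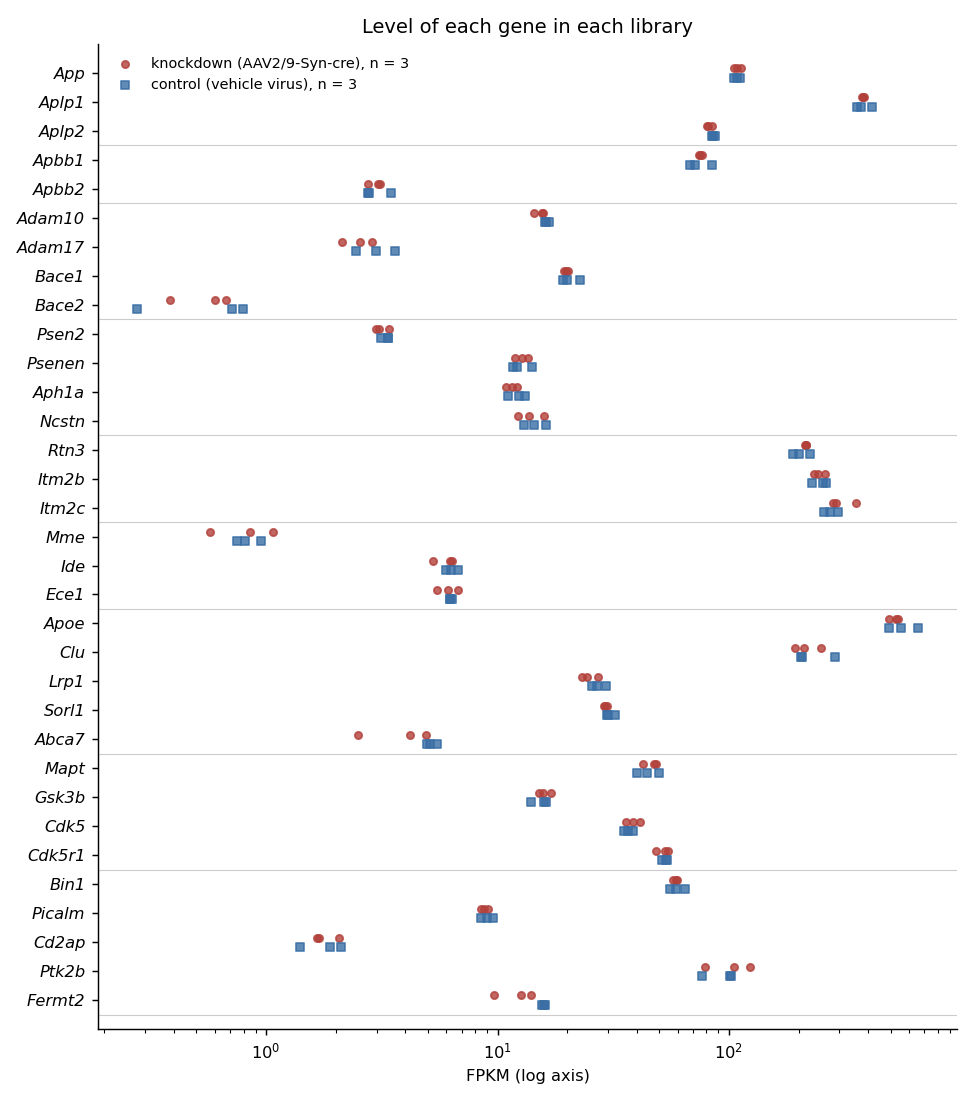
Level of each of the 33 genes in each library on a log axis of FPKM, with circles for the 3 knockdown and squares for the 3 control libraries and grey lines between functional groups. Levels run from under 1 FPKM for Bace2 and Mme to 544 FPKM on average for Apoe, and the groups lie apart for Fermt2, Abca7, Adam10 and Sorl1.

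No member passed the threshold. edgeR's quasi-likelihood test at an adjusted p under 0.05 called 0 of 33 members, against 0.0% of all 20946 tested genes, and limma also called none of the 33. DESeq2 called 0 of the 33 as well, against 0.486% of the 15221 genes to which it gave an adjusted p. At an unadjusted p under 0.05, edgeR found 1 member (3.03%), against 6.19% of all tested genes, and that member was lower in the knockdown group, as were 3.16% of all tested genes. The log2 fold changes of the members, knockdown minus control, ran from -0.41 to 0.19 with a median of -0.02, beside a median of -0.00053 over all tested genes. Of the 33, 14 were above 0 and 19 below 0. In bulk tissue, fewer cells of a type and less RNA per cell cannot be told apart.

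The precision of these estimates differed between members. For 28 of the 33 the 95% interval of the edgeR fold change lay within 1.5-fold of no difference in both directions. The 5 whose intervals reached beyond it were Adam17, Bace2, Abca7, Ptk2b and Fermt2. App had the interval 91.8% to 114% of the control level, whereas Bace2, near the lower end of the range, had 49.2% to 183%. The mean FPKM of the knockdown group was within 90% to 110% of the control mean for 29 members.

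**Figure D2:**
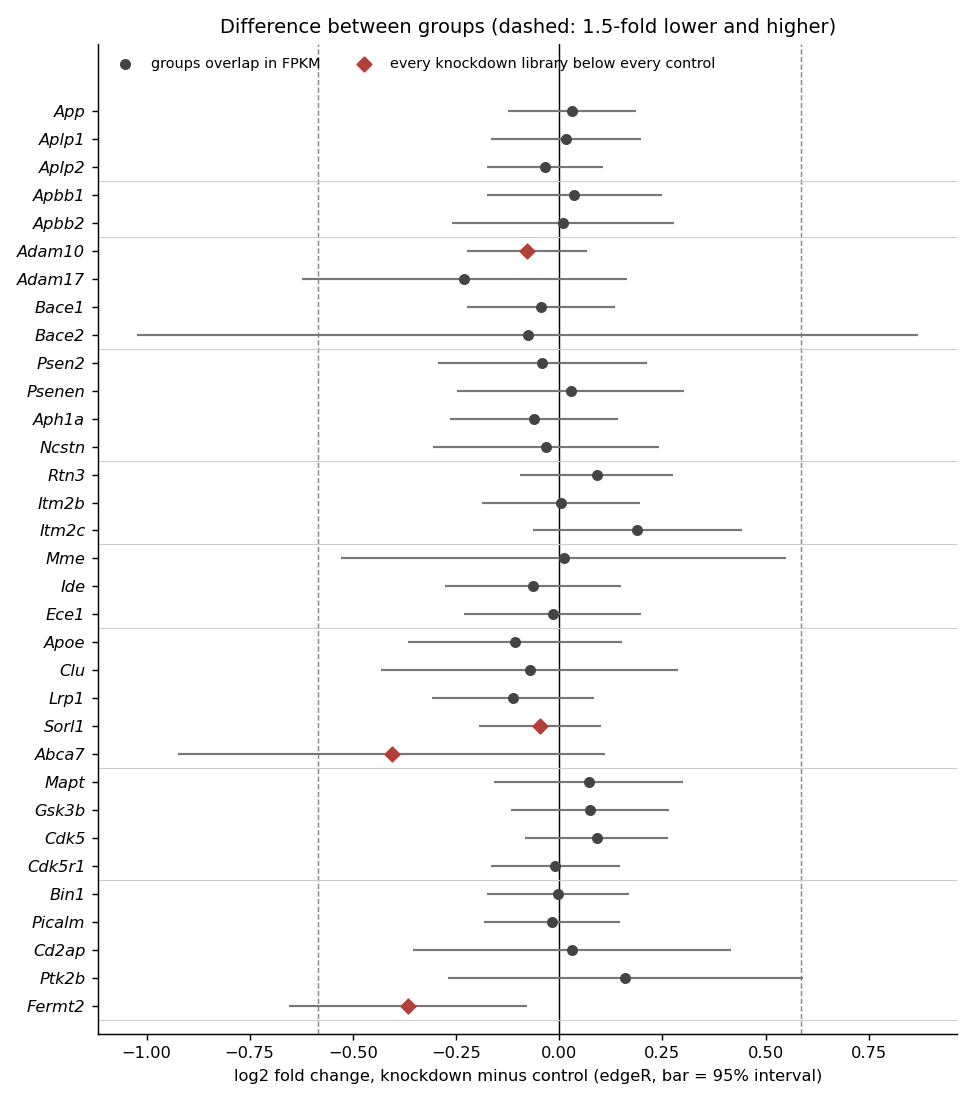
edgeR log2 fold change of each gene, knockdown minus control, with its 95% interval as a bar, dashed lines at 1.5-fold lower and higher, and diamonds for genes in which every knockdown library was below every control library. Of the 33 intervals, 32 include 0, and that of Fermt2 lies below it.

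In 4 members every knockdown library was below every control library, and in none was every knockdown library above. That is 12.1% of the members with groups that did not overlap, against 13.0% of all tested genes, of which 7.5% were lower and 5.47% higher in the knockdown group. The 4 were Fermt2, Abca7, Adam10 and Sorl1, which differ in function.

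Fermt2 encodes a kindlin, a focal adhesion protein that activates integrins, and lies at a risk locus for Alzheimer's disease. It spans chromosome 14 from 45696252 to 45767575 on the minus strand (GRCm39). Its level was 13.9, 9.68 and 12.6 FPKM in knockdown replicates 1 to 3 and 15.6, 15.9 and 16 FPKM in the controls. Knockdown replicate 2 was the lowest library and the controls lay close together. The log2 fold change of Fermt2 was -0.37 (95% interval -0.66 to -0.08, SE 0.124), with an unadjusted edgeR p of 0.0198 and an adjusted p of 0.792. With each library left out in turn the value ran from -0.48 to -0.24, the latter without knockdown replicate 2. With a term for Y-linked counts the value was -0.35. That fit sets the knockdown libraries against control replicate 1 alone, the only control without such counts. DESeq2 gave Fermt2 an adjusted p of 0.289.

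Abca7 encodes a lipid transporter of the ATP-binding cassette family and is another risk gene. Its locus is chromosome 10 from 79832328 to 79851406, plus strand. Its level was 4.89, 2.48 and 4.17 FPKM in the knockdown libraries and 4.97, 5.09 and 5.50 FPKM in the controls. Knockdown replicate 1 lay just under the lowest control, and replicate 2 of that group lay far below all others. The log2 fold change of Abca7 was -0.41 (SE 0.221, edgeR adjusted p = 0.806). Leaving out knockdown replicate 2 gave -0.18, and leaving out replicate 1 of that group gave -0.61.

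Adam10 and Sorl1 differed by small amounts. Adam10, the alpha-secretase gene (chromosome 9 from 70586279 to 70687511, plus strand), was at 15.5, 14.3 and 15.7 FPKM after Cre and 16.1, 16.6 and 16.1 FPKM in the controls. Its log2 fold change was -0.08 (SE 0.0620, edgeR adjusted p = 0.848), with an interval from 85.7% to 105% of the control level. Sorl1, a sorting receptor that steers APP away from amyloid-forming compartments (chromosome 9 from 41876016 to 42035593, minus strand), was at 29.8, 29.2 and 28.8 FPKM after Cre. In the controls it was at 32.2, 30.1 and 29.9 FPKM, and the highest knockdown library almost touched the lowest control. The Sorl1 log2 fold change was -0.05 (SE 0.0634, edgeR adjusted p = 0.911), and it was -0.0063 without control replicate 1.

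**Figure D3:**
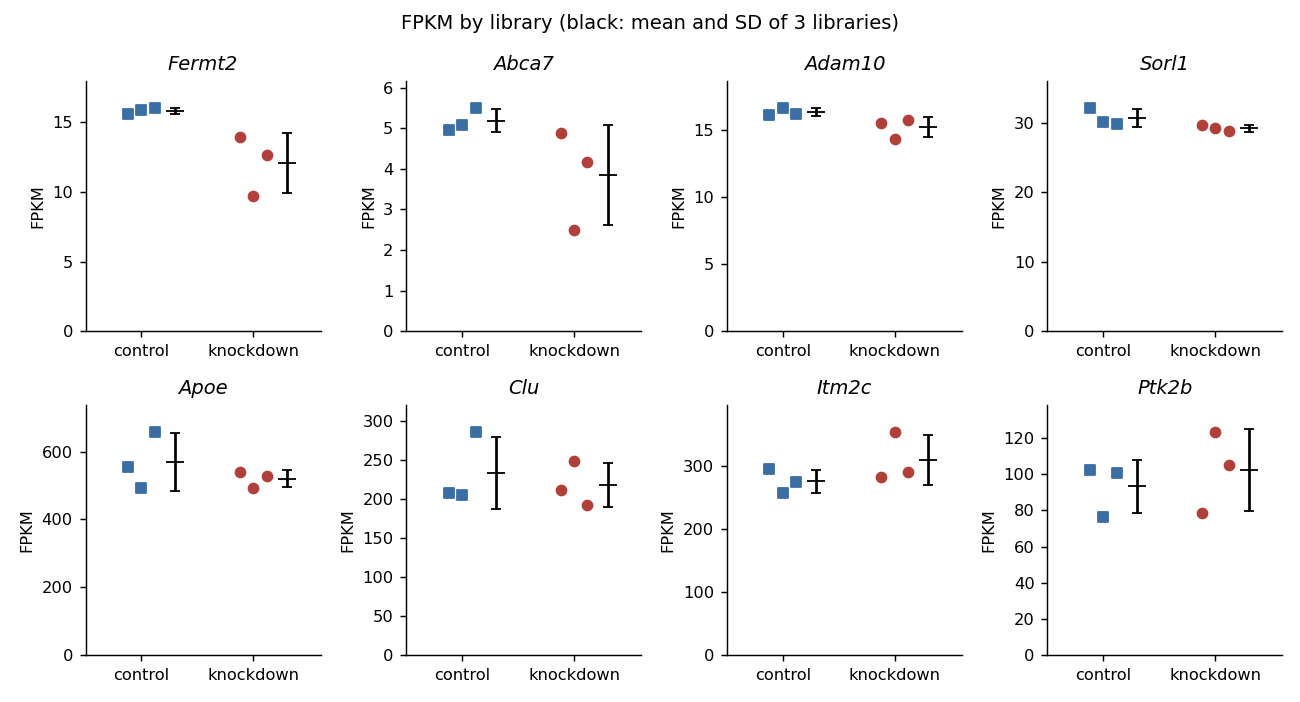
FPKM of 8 members by library, with squares for control and circles for knockdown libraries and the mean and SD of 3 libraries in black, on axes that start at 0. In the top row the groups do not overlap; in the bottom row they do, with Apoe and Clu highest in control replicate 3 and Itm2c and Ptk2b highest in knockdown replicate 2.

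The promoters shown are those of the 4 members in which every knockdown library was below every control library. Groups that did not overlap made up 12.1% of the members and 13.0% of all tested genes, so the 4 are not read as a set. Their upstream sequences are given as a description. Of the 33 members, 25 had a window in RefSeq's promoter table (build GRCm38.p6), and the first listed window of a gene was used. Each line gives the 250 bases before the annotated start, 5′ to 3′ on the strand of the gene. The windows are chr14:45530066-45530315 (minus) for Fermt2, chr10:79996244-79996493 (plus) for Abca7, chr9:70678732-70678981 (plus) for Adam10 and chr9:42124298-42124547 (minus) for Sorl1. Capitals mark matches on either strand to the GC box GGGCGG and the CCAAT box CCAAT.
Fermt2: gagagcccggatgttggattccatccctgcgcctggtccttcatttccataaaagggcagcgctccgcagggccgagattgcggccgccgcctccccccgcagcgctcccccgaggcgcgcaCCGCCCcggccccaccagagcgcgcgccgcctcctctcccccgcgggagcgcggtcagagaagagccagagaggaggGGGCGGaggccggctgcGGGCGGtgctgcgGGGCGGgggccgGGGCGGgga
Abca7: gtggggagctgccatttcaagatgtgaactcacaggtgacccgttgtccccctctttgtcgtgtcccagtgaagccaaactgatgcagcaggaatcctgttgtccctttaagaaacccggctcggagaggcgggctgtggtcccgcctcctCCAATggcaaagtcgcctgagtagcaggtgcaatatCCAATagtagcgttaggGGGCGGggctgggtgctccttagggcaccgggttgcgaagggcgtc
Adam10: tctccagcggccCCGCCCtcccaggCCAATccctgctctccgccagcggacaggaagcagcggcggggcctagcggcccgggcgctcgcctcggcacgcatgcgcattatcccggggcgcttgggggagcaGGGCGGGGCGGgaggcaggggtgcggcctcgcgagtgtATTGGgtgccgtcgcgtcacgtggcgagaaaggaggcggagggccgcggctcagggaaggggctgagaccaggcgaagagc
Sorl1: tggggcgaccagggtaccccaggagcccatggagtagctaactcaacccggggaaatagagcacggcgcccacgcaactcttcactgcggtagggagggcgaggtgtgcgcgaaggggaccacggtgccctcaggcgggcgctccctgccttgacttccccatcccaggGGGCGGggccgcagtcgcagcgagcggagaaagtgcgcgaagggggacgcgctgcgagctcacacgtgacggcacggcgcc

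Fermt2 had 5 matches to the GC box in its window, 4 of them within 51 bases of the start. Adam10 had 3, of which 2 share a base, while Abca7 and Sorl1 had 1 each. The CCAAT box was matched at 2 places in Abca7 and at 2 in Adam10, and not in the Fermt2 or Sorl1 windows. The TATA box TATAAA and the cAMP response element TGACGTCA were also searched on both strands and matched none of the 4 windows. The GC box occurred in 16 of the 25 member windows (64%) and in 32.9% of the 27025 windows of all genes, and the CCAAT box in 8 of 25 (32%) and 34.5% of all. The TATA box occurred in 1 of 25 member windows (4%) and 13.0% of all windows, and the cAMP response element in 0 of 25 and 1.62%. The windows of the members were also richer in G and C, with a median of 66.4% against 52% over all windows. The 27025 windows of all genes were not limited to the 20946 tested genes, whereas all members were tested. The shares thus compare unlike sets, and these matches describe letters only.

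The mean levels of the APP family were close to those of the controls. App, the precursor of amyloid beta (chromosome 16 from 84746573 to 84970654, minus strand), was at 112, 109 and 106 FPKM in the knockdown libraries. In the controls App was at 112, 108 and 105 FPKM, so the groups lay on top of each other. Its log2 fold change was 0.03 (95% interval -0.12 to 0.19, edgeR adjusted p = 0.942). Aplp1 and Aplp2, homologues that secretases also cut but that lack the amyloid beta sequence, had log2 fold changes of 0.02 and -0.04. Aplp1 was highest in control replicate 1 at 415 FPKM and otherwise at 359 to 383 FPKM. Of the summed FPKM of the 3 genes, Aplp1 made up 65.1% to 67.6%, App 18.2% to 19.6% and Aplp2 14.1% to 15.4% over the 6 libraries.

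The adaptors that bind the intracellular tail of APP were Apbb1, at 75.2 ± 1.30 FPKM after Cre and 74.5 ± 8.83 FPKM in the controls (SD, n = 3 each), and Apbb2, at 2.97 ± 0.187 against 3.00 ± 0.396 FPKM. The knockdown libraries of Apbb1 lay between its lowest and highest controls. Apbb2 was highest in control replicate 1, at 3.45 FPKM.

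All 4 genes of alpha- and beta-secretases had log2 fold changes below 0, from -0.23 to -0.04, and none passed. Adam17, another sheddase with alpha-secretase activity, was at 2.88, 2.13 and 2.55 FPKM after Cre and 2.44, 2.98 and 3.59 FPKM in the controls. Its groups overlapped, with the lowest value in knockdown replicate 2 and the highest in control replicate 3. The log2 fold change of Adam17 was -0.23 (SE 0.168, edgeR adjusted p = 0.838), -0.09 without control replicate 3 and 0.06 with a term for Y-linked counts. Adam17 shares 311 bases with Iah1 on the opposite strand, a gene at 2.82 FPKM, and whether the counting used strand is not given in the sources used here.

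Bace1, the main beta-secretase of neurons, was at 19.9, 19.3 and 20.1 FPKM after Cre and at 20.1, 22.8 and 19.2 FPKM in the controls. Control replicate 2 was the one library that stood above the rest, and the log2 fold change of Bace1 was -0.04 (95% interval -0.22 to 0.14, edgeR adjusted p = 0.930). Its homologue Bace2 made up 1.36% to 3.58% of the summed FPKM of the pair. Bace2 varied most of all members, from 0.277 FPKM in control replicate 1 to 0.797 FPKM in control replicate 2, a 2.88-fold range. Its counts were 181 to 404, and its log2 fold change was -0.08 in the fit of the 2 groups and 1.01 with a term for Y-linked counts, where control replicate 1 is the only control without such counts. Bace1 has antisense neighbours in the table, Rnf214, Gm16536 and Gm49338, at 4.37 to 8.28 FPKM.

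The gamma-secretase subunits were close to the control level. Ncstn, the substrate-receiving subunit nicastrin, was at 13.9 ± 1.79 FPKM after Cre and 14.5 ± 1.58 FPKM in the controls. Psenen, the subunit that activates presenilin, was at 12.7 ± 0.862 against 12.7 ± 1.30 FPKM, and Aph1a, a scaffold subunit, at 11.5 ± 0.615 against 12.2 ± 1.01 FPKM. Psen2, which encodes a catalytic presenilin, was the lowest of these 4 at 3.15 ± 0.206 against 3.29 ± 0.130 FPKM (SD, n = 3 each throughout). The groups of all 4 overlapped, and their log2 fold changes ran from -0.06 for Aph1a to 0.03 for Psenen. Ncstn overlaps Copa by 267 bases and Aph1a overlaps Car14 by 521 bases, both on the opposite strand.

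Of the membrane proteins that bind APP or BACE1, Itm2c had the highest log2 fold change of all members. Itm2c, a homologue of the dementia gene Itm2b, was at 282, 355 and 291 FPKM after Cre and at 295, 258 and 275 FPKM in the controls. Knockdown replicate 2 stood above the other 5 libraries, and control replicate 1 lay above 2 of the knockdown libraries. The log2 fold change of Itm2c was 0.19 (SE 0.108, edgeR adjusted p = 0.816), and it was 0.07 without knockdown replicate 2 and 0.08 with a term for Y-linked counts. Itm2b, which inhibits APP cleavage, was at 246 ± 13.3 FPKM against 249 ± 17.9 FPKM. Rtn3, a reticulon that inhibits BACE1, ran from 213 to 216 FPKM after Cre and from 190 to 224 FPKM in the controls, with a log2 fold change of 0.09 (edgeR adjusted p = 0.861).

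The amyloid-degrading proteases did not differ beyond their spread. Ide, the insulin-degrading enzyme, was at 5.95 ± 0.596 against 6.32 ± 0.377 FPKM and Ece1, the endothelin-converting enzyme, at 6.11 ± 0.644 against 6.28 ± 0.0714 FPKM. Mme, which encodes neprilysin, was at 1.07, 0.574 and 0.849 FPKM after Cre and 0.751, 0.947 and 0.813 FPKM in the controls. The knockdown libraries of Mme held both its highest and its lowest value, and its 95% interval reached from 69.3% to 146% of the control level. All 3 proteases were lowest in knockdown replicate 2.

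The lipoprotein genes, their receptors and the lipid transporter gene Abca7 all had log2 fold changes below 0, 5 of 5, where 50.1% of all tested genes were below 0. None passed, and their median was -0.11. Apoe (chromosome 7 from 19430034 to 19433113, minus strand) was at 540, 492 and 527 FPKM after Cre and at 556, 491 and 659 FPKM in the controls. Control replicate 3 was the highest library and control replicate 2 the lowest, so the groups overlapped. The Apoe log2 fold change was -0.11 (95% interval -0.37 to 0.15, edgeR adjusted p = 0.880) and 0.0094 without control replicate 3.

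Clu, a secreted chaperone that binds amyloid beta, was at 211, 249 and 192 FPKM after Cre and at 207, 205 and 286 FPKM in the controls. It too was highest in control replicate 3, and its log2 fold change was -0.07 (edgeR adjusted p = 0.942), with a value of 0.10 without that library. In control replicate 3 all 8 choroid plexus markers were at their highest, among them Ttr at 4184 FPKM, against 0.349 to 12.9 FPKM elsewhere. Their part in the Apoe and Clu levels was not tested. Astrocyte markers summed to 485 to 511 FPKM in the knockdown libraries and 503 to 521 FPKM in the controls, and none was at 0 FPKM. Of the 8 markers, 6 were below 0 in log2 fold change and 2 above, so the sum hides opposite differences. Gfap was at 64.0%, Aqp4 at 56.6%, Gja1 at 82.3% and Slc1a3 at 92.8% of the control mean, whereas Aldoc was at 119%. For each of these the groups did not overlap, with 4 lower and 1 higher in the knockdown group. Over all tested genes these shares were 7.5% and 5.47%. S100b, Slc1a2 and Aldh1l1 were at 95.8%, 98.4% and 101%, with overlapping groups. None of the 8 passed in edgeR (smallest adjusted p = 0.792). Microglial markers summed to 124 to 136 and 112 to 135 FPKM. Lrp1, an endocytic receptor for APOE and amyloid beta, was at 27.1, 23.2 and 24.4 FPKM after Cre and 25.7, 26.9 and 29.6 FPKM in the controls, with a log2 fold change of -0.11 (SE 0.0838, edgeR adjusted p = 0.838).

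None of the genes of tau and its kinases passed the threshold, and this does not show that their levels were equal. Mapt, the tau gene (chromosome 11 from 104122216 to 104222916, plus strand), was at 48.2, 42.7 and 47.6 FPKM after Cre and at 49.8, 44.2 and 40.0 FPKM in the controls. Its groups overlapped over nearly their whole range, and its log2 fold change was 0.07 (95% interval -0.16 to 0.30, edgeR adjusted p = 0.911). Gsk3b, a tau kinase, was at 15.9 ± 0.953 against 15.4 ± 1.25 FPKM. Cdk5, a neuronal tau kinase, was at 38.6, 35.8 and 41.4 FPKM against 35.3, 38.6 and 36.6 FPKM, with overlapping groups and a log2 fold change of 0.09 (SE 0.0741, edgeR adjusted p = 0.85). Its activator Cdk5r1 was at 52.0 ± 3.26 against 53.2 ± 1.48 FPKM.

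Ratios of paired genes within a library do not depend on how the library was scaled. The FPKM ratio of Cdk5r1 to Cdk5 was 1.35 ± 0.0691 after Cre and 1.44 ± 0.0660 in the controls. That of Adam10 to Bace1 was 0.768 ± 0.0226 against 0.790 ± 0.0560, and that of Bace1 to App was 0.182 ± 0.00741 against 0.191 ± 0.0172 (SD, n = 3 each). The exact two-sided permutation tests of the log2 ratios gave p = 0.30, 0.50 and 0.50 in this order, where 0.10 is the smallest value that 3 against 3 libraries allow.

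Among the endocytic and cytoskeletal risk genes other than Fermt2, Ptk2b varied most in absolute level. Ptk2b encodes a calcium-activated tyrosine kinase of neurons that is related to focal adhesion kinase. It was at 78.6, 124 and 105 FPKM after Cre and at 103, 76.4 and 101 FPKM in the controls. A low library occurred in each group, and the log2 fold change of Ptk2b was 0.16 (SE 0.184, edgeR adjusted p = 0.890), 0.32 without knockdown replicate 1 and -0.0048 without knockdown replicate 2. Bin1, a membrane-bending protein of endocytosis that oligodendrocytes also express strongly, was at 57.3 to 59.9 FPKM after Cre and 55.8 to 64.6 FPKM in the controls. Its highest library was control replicate 1, in which the oligodendrocyte markers were also highest; all 8 of these markers had log2 fold changes below 0, none was at 0 FPKM, and their part in the Bin1 level was not tested. Picalm, a clathrin assembly protein, was at 8.77 ± 0.290 against 9.03 ± 0.560 FPKM, and the actin adaptor Cd2ap at 1.81 ± 0.226 against 1.80 ± 0.364 FPKM.

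Which library was lowest or highest varied between members. Knockdown replicate 2 was the lowest library for 10 members (30.3%, against 24.5% of all tested genes), control replicate 2 for 8 and control replicate 3 for 7. Control replicate 3 was the highest library for 10 members (30.3%, against 21.0% of all tested genes), and control replicates 1 and 2 for 7 each. Knockdown replicate 1 was the lowest library for none of the 33, against 15.1% of all tested genes. Those lowest in knockdown replicate 2 included Fermt2, Abca7, Adam17, Adam10, Mme, Ide and Ece1. Knockdown replicate 2 was also the highest library for Itm2c and Ptk2b. In that library the summed marker levels lay within the range of the other knockdown libraries for astrocytes (494 FPKM) and oligodendrocytes (611 FPKM) and were the lowest of the knockdown group for neurons (861 FPKM). The part of that library's cell makeup in these levels was not tested.

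**Figure D4:**
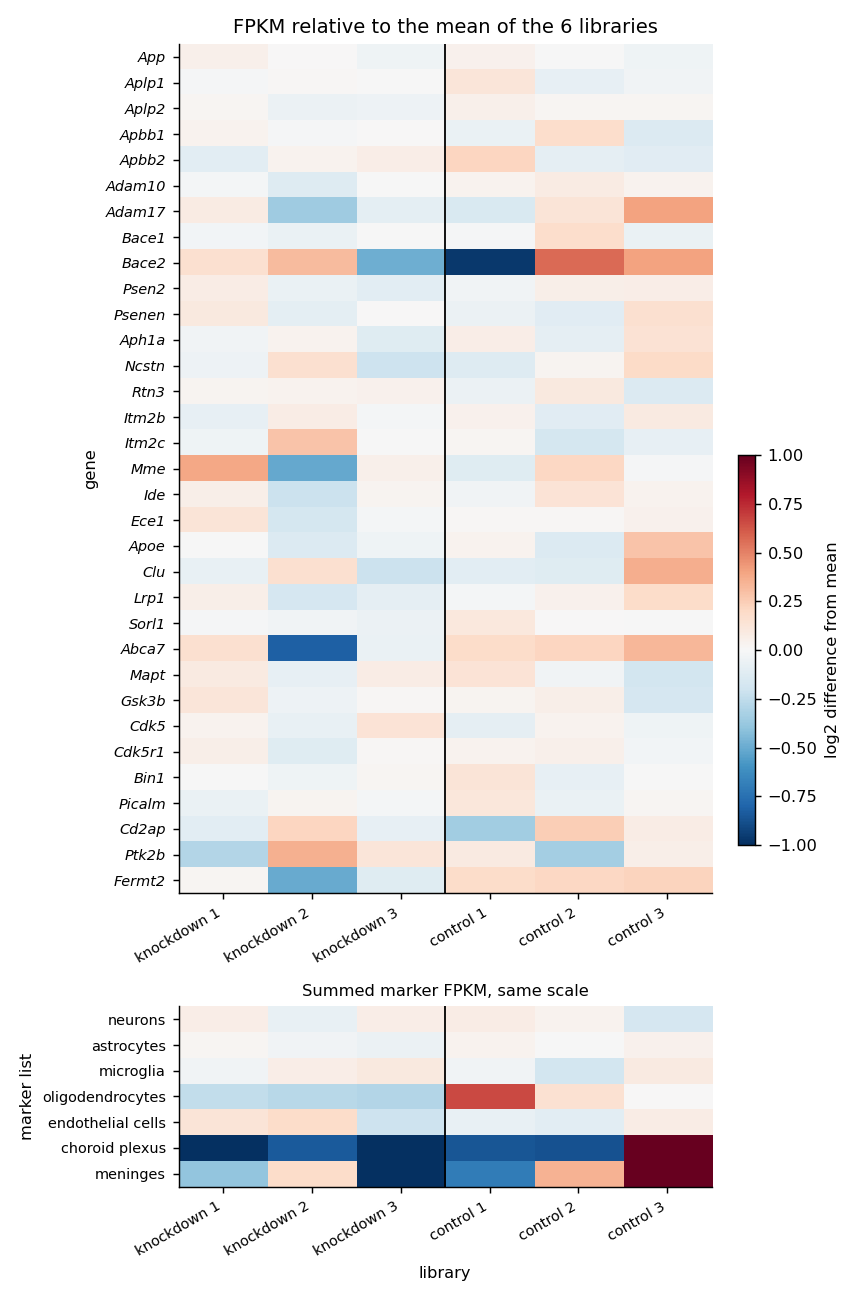
Each gene's log2 FPKM in each library minus its mean over the 6 libraries (top), and the same for the summed FPKM of 7 marker lists (bottom), with colours that end at -1 and 1 and a black line between the groups. Abca7, Fermt2 and Mme are lowest in knockdown replicate 2, Bace2 is lowest in control replicate 1, and the choroid plexus and meningeal sums are highest in control replicate 3.

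A wider list held 86 other genes of these pathways. Of these, edgeR called 0, 5 had an unadjusted p under 0.05 (5.81%, against 6.19% of all tested genes), and 13 had groups that did not overlap (15.1%, against 13.0%). Their median log2 fold change was -0.01. On log2(FPKM + 1), limma also called none of those with a mean of 0.5 FPKM or more. DESeq2 called 1, Itm2a, where it called 0.486% of the 15221 genes to which it gave an adjusted p. It gave no adjusted p to Epha1 and Cass4 of the 86. Itm2a, a homologue of Itm2b and Itm2c, was at 20.1, 15.3 and 15.9 FPKM after Cre and 22.2, 28.6 and 25.7 FPKM in the controls. Its groups lay apart, and its log2 fold change was -0.55 (SE 0.133), with an adjusted p of 0.792 in edgeR and of 0.0479 in DESeq2. The edgeR value of Itm2a, an X-linked gene, was -0.36 with a term for Y-linked counts. That fit sets the knockdown libraries against control replicate 1 alone. Apbb1ip, an adaptor, was at 0.634 ± 0.0229 against 0.510 ± 0.0264 FPKM.

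Among the other lipoprotein receptors and clearance genes, 11 of 14 were below 0 in log2 fold change and 3 above, with a median of -0.08. Lpl, a lipase gene, was at 6.22 ± 0.645 against 7.85 ± 0.875 FPKM (log2 fold change -0.31). Its groups did not overlap, and it did not pass (edgeR adjusted p = 0.792). Of the other tau kinases, phosphatases and microtubule proteins, 13 of 20 were below 0. The smallest p values there belonged to Cdk5r2, another activator of CDK5, at 65.0 ± 6.71 against 75.6 ± 3.10 FPKM (-0.20), and to the phosphatase subunit gene Ppp2r2a (0.07).

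Of the sorting receptors and retromer genes, 8 of 12 were above 0, with Snx1, a sorting nexin, at 13.7 ± 0.495 against 12.4 ± 0.518 FPKM (0.17) and Sorcs2 at 6.43 ± 0.196 against 5.74 ± 0.647 FPKM (0.19). The other secretase genes and their partners had 8 of 10 below 0, with the smallest p for Adam19 (-0.30) and Aph1b (0.16). The further genes of Alzheimer risk loci had 11 of 20 below 0, with the smallest p for Slc24a4, a sodium-calcium exchanger, at 7.43 ± 0.429 against 6.32 ± 0.334 FPKM (0.26), and for the phosphatase gene Inpp5d (0.32). None of these passed in edgeR, whose smallest adjusted p over the 86 was 0.792.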

How the data were processed

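Gene expression was measured by RNA sequencing of poly(A)-selected, dUTP-marked libraries, per the labels' protocols. Tools named without settings in the submitters' processing notes are StringTie 2.1.6, HISAT2 2.2.1, cutadapt 1.9, edgeR and DESeq2, and the build is GRCm39. Per the file headers, the authors deposited FPKM and estimated count values per gene. Rounding the estimated counts changed 0 values, since all deposited ones are whole. Low values pile up at multiples of 4, and what 1 count stands for is not given in the sources used here. FPKM is scaled by gene length and library.

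Columns were matched to groups by library name. No libraries agreed within sampling noise (lowest chi-square per gene 24.8). edgeR 4.0.16 in R 4.3.3 was fitted on the whole table (filterByExpr, TMM, quasi-likelihood F test, Benjamini-Hochberg over 20946 genes). The SE is the size of the log2 fold change over the root of F. The fit was tested on simulated data. Alternatives used RLE factors, no filter, DESeq2 1.42.0 (5725 genes without an adjusted p), a replicate block, each library left out, a term for Y-linked counts, counts divided by 4, and limma 3.58.1 on log2(FPKM + 1), restricted to a gene mean of 0.5 FPKM or more, with a pseudocount of 0.1, or without that filter.

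Members and lists were chosen with earlier results of these data known. All members are named; full statistics go to those with an unadjusted p under 0.05, with groups that do not overlap, or with the 3 highest or lowest fold changes; App, Apoe, Mapt, Bace1, Clu, Lrp1, Rtn3 and Mme were added for their roles after their values were seen. Of each list of other pathway genes the 2 with the smallest p are named, except for 1 gene that is not reported here. Nrg1 has 2 rows, and the more abundant was used. Promoter sequences are RefSeq's (GRCm38.p6), and no coordinates were converted.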

Additional observations from a re-analysis of the deposited data

How the results depend on the processing

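No member passed an adjusted p under 0.05 under any of the 15 alternatives, and the smallest adjusted p of a member was 0.289 (Fermt2, DESeq2). Over all genes the number called was 0, 74 in DESeq2, 1 with counts divided by 4, 1 with a term for Y-linked counts and 0 to 6 when a library was left out, with 6 without control replicate 1. The median log2 fold change of the members was -0.045 to -0.0085 when a library was left out (-0.045 without knockdown replicate 1). Same-numbered libraries showed no shared signal: the correlations of their deviations from the group means were -0.01, -0.05 and -0.10. Such values cannot show whether the replicate numbers of the labels mark pairs. With the replicate block no gene and no member was called and the members' median was -0.02.

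Of 495 recomputed member values, 430 kept their sign and 65, in 22 members, did not; none of these members was called. The term for Y-linked counts sets the knockdown libraries against control replicate 1 alone. With that term the values were App -0.022, Aplp1 -0.11, Apbb2 -0.20, Adam17 0.056, Bace2 1.01, Psen2 0.018, Ncstn 0.12, Itm2b -0.036, Ide 0.0089, Clu 0.087 and Mapt -0.094. In limma they were Aplp1 -0.0043, Apbb2 -0.0058 (-0.0063 with the pseudocount of 0.1), Itm2b -0.017 (-0.018 with the pseudocount of 0.1) and Mme -0.013 (-0.041 with the pseudocount of 0.1), the same with and without the filter. Without the count filter Apbb2 was at -0.0019 and Itm2b at -0.0054, and with the replicate block Bace2 was at 0.0085, Mme at -0.024 and Bin1 at 0.00031. With each library left out, the ranges were Mme -0.21 to 0.21, Cdk5r1 -0.045 to 0.033, Bin1 -0.052 to 0.062, Picalm -0.064 to 0.033, Cd2ap -0.12 to 0.16, Aplp1 -0.028 to 0.085, Apbb2 -0.052 to 0.13, Bace1 -0.096 to 0.029 and Bace2 -0.42 to 0.19. They were Psenen -0.029 to 0.11, Itm2b -0.054 to 0.045, Apbb1 -0.029 to 0.13, Ncstn -0.14 to 0.050, Apoe -0.20 to 0.0094, Clu -0.19 to 0.10, Mapt -0.0049 to 0.16, Ide -0.11 to 0.0098, Ece1 -0.093 to 0.050 and Ptk2b -0.0048 to 0.32. The cause was not tested.

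With 3 libraries a group, a p that misses the threshold does not show equal levels; the intervals bound each difference. The spread between libraries was widest for Bace2 (biological coefficient of variation 37.5%), which also had the fewest counts.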
